A study of Rattus norvegicus with 12 samples.

Results

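Preadipocytes from the perirenal depot, the fat around the kidney, were compared with preadipocytes from the epididymal depot, the fat attached to the epididymis, in young rats. The comparison used 6 of the 12 arrays of the series, chosen by their labels alone: 3 arrays of perirenal cells and 3 arrays of epididymal cells, all from male Brown Norway rats of 3 months reared behind a barrier. The labels give 1 animal number to each pair, so both depots of rats 1, 2 and 3 were measured and the arrays were paired by rat. The other 6 arrays held the same depots of 3 rats of 30 months and entered only the estimate of the spread and the comparison of ages. No animal carried an allele or received a treatment. The cells were not sorted: fat was digested with collagenase, the cells that attached were lifted and plated again, and RNA came from the confluent cultures, to which no differentiation step is recorded.

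Preadipocytes are fibroblast-like precursors that divide, stop at confluence and, under adipogenic hormones, become fat cells. C/EBPβ and C/EBPδ act early in that program and induce PPARγ and C/EBPα, which switch on the genes of lipid storage. Perirenal and epididymal fat are both intra-abdominal depots, but they lie against different organs and are known to keep their own patterns of developmental genes in culture. Each value below is a MAS5 signal, the summary in arbitrary units of the probe pairs that make up 1 probe set. A difference is the log2 signal of perirenal cells minus that of epididymal cells, as mean ± SE over 3 rats from a limma fit with rat as a block. A probe set passed the threshold when its Benjamini-Hochberg adjusted p was below 0.05 over all 11106 probe sets tested.

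The labelled RNA of the depots differed in the balance of its 3′ and 5′ ends, and this touches every result that follows. The actin ratio, which divides the signal of a β-actin probe set near the 3′ end by one near the 5′ end and measures how far the labelled copies reach towards the start of the transcript, was 0.947, 1.02 and 1.11 on the perirenal arrays of rats 1, 2 and 3. On the epididymal arrays of the same rats it was 10.3, 5.25 and 38.2, so the groups did not overlap and rat 3 had the highest ratio. The old rats showed the same split, at 0.902 to 1.06 in perirenal cells and 7.0 to 55.0 in epididymal cells. A bacterial transcript that can be added before labelling, dap, had a signal of 2.3, 0.4 and 0.9 on the young perirenal arrays and of 656, 493 and 573 on the young epididymal arrays. Every epididymal array thus stands apart from every perirenal array on both measures, and depot and these array properties cannot be told apart. With the log2 actin ratio added to the fit as a covariate, 12 probe sets passed the threshold. They include those of Mfap4, Spp1 and Tnc and both of Cd55, and the other calls named below were lost. That covariate is nearly the same variable as depot, since no perirenal array has a ratio near that of any epididymal array.

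**Figure D1:**
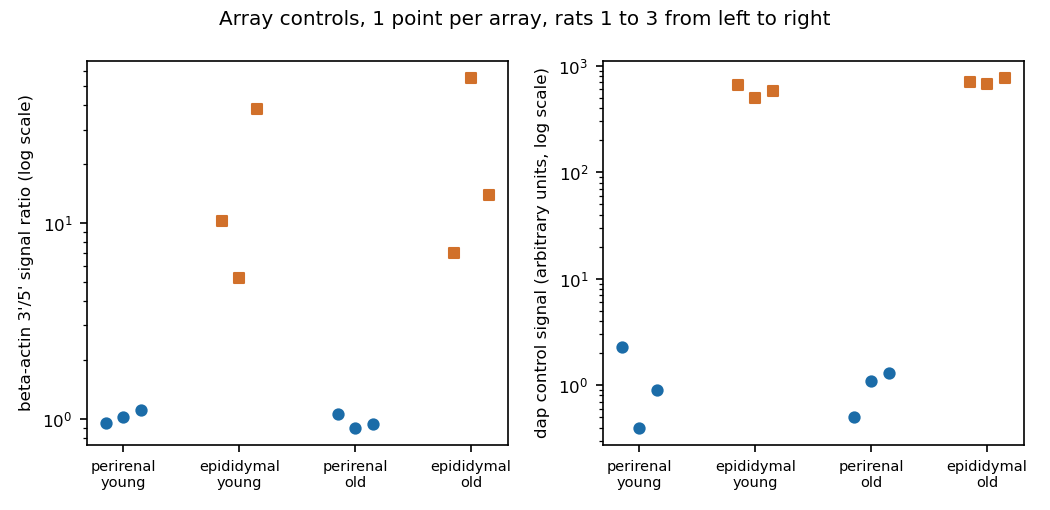
β-actin 3′ to 5′ signal ratio (left) and signal of the bacterial dap control (right) on each of the 12 arrays, log axes, circles perirenal and squares epididymal. The young perirenal arrays have ratios of 0.947 to 1.11 and the young epididymal arrays 5.25 to 38.2, and dap is at 2.3 or below on the young perirenal arrays against 493 or above on the young epididymal arrays.

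Between the depots, 3927 of the 11106 probe sets (35.4%) passed the threshold in young rats. Of these, 2235 (20.1% of all tested) were higher and 1692 (15.2%) were lower in perirenal cells. The larger share of higher calls, 56.9%, was 46.9% after quantile normalization of the arrays and 48.2% when the dimmest 50% of the probe sets were dropped, so no excess of higher over lower genes is read from it. Among the calls, 3912 had the same sign in all 3 rats, and the 3 perirenal and 3 epididymal signals did not overlap for 3695 of them, while 5534 of all tested probe sets (49.8%) had no overlap. Differences of more than 2-fold numbered 1291 in the higher and 492 in the lower direction. In 491 of the 3927 calls the dimmer depot averaged less than 56.3 on the log scale, a signal at which no fold is given below. The lower quartile of all signals was 58.2 to 61.4 on the young perirenal and 33 to 46.2 on the young epididymal arrays. What dim signals contribute to the 2-fold counts was not tested, and no excess in either direction is read from them. The median absolute log2 difference over the called probe sets was 0.928 in rat 1, 0.868 in rat 2 and 0.964 in rat 3. The epididymal actin ratios of these rats, 10.3, 5.25 and 38.2, have the same order, and a link was not tested. The calls came from these same 3 rats, so a like sign and size in each rat follows in part from the call. Pearson correlations of log2 signal were 0.964 to 0.970 among the young perirenal arrays, 0.942 to 0.953 among the young epididymal arrays and 0.844 to 0.879 between the depots.

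Probe sets below a mean signal of 56.3, the dimmest 30%, were not tested, and the largest differences were taken from genes without overlap whose 2 groups both had a geometric mean above that signal, although single arrays could lie below it. Where a group's geometric mean was below 56.3, its signals are given and no difference. Among them the gene with the largest fall in perirenal cells was Tgm2, tissue transglutaminase, which crosslinks proteins of the extracellular matrix. Its signal was 366, 110 and 307 on the perirenal arrays of rats 1, 2 and 3 and 3782, 2677 and 2971 on the epididymal arrays, 13.5-fold lower (log2 -3.75 ± 0.27, adjusted p = 3.11e-05). A second probe set of Tgm2 was also lower, by -1.89 ± 0.31. Mfap4, a microfibril protein of elastic fibres, read 250, 242 and 303 against 3734, 3746 and 2529 (log2 -3.64 ± 0.18, adjusted p = 9.18e-06). Ptn, the heparin-binding growth factor pleiotrophin, read 46.3, 63.3 and 76.6 against 637, 430 and 1586 (log2 -3.64 ± 0.29). In these 3 genes every epididymal array lay several-fold above every perirenal array.

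Other genes of the 10 with the largest falls belong to the retinoid, Wnt and actin systems. Aldh1a2, which makes retinoic acid from retinaldehyde, had signals of 177, 171 and 155 in perirenal and 1580, 975 and 2672 in epididymal cells (log2 -3.26 ± 0.33). Wnt4, a secreted Wnt ligand of the developing urogenital tract, read 337, 186 and 297 against 2135, 1647 and 2604 (log2 -2.98 ± 0.25). Actg2, the γ-actin of smooth muscle, read 121, 67.9 and 94.6 against 736, 893 and 825 (log2 -3.15 ± 0.24). None of these groups overlapped, which the selection required. Nrep, a neuronal regeneration-related protein, read 118, 157 and 109 against 575, 1149 and 2277 (log2 -3.18 ± 0.37).

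The secreted proteins Lcn2 and Pla2g2a and the muscle actin Acta1 complete the 10. Lcn2, lipocalin 2, which binds bacterial siderophores, read 1017, 5719 and 1311 in perirenal and 6995, 16751 and 18361 in epididymal cells (log2 -2.71 ± 0.42). Rat 2 had the highest perirenal Lcn2 signal, still below the lowest epididymal one. Pla2g2a, a secreted phospholipase A2, read 19.2, 186 and 358 against 427, 486 and 1208 (log2 -2.54 ± 0.56). Its size rested on rat 1, since without rat 1 the difference was -1.57 (adjusted p = 0.035). Acta1, the α-actin of skeletal muscle, read 338, 7.5 and 145 against 485, 392 and 531 (log2 -2.70 ± 0.78, adjusted p = 0.0227). That call rested on rat 2, where the perirenal signal of 7.5 was near the floor: without rat 2 the difference was -1.20 with adjusted p = 0.121, without rat 3 adjusted p = 0.0507, and without the rat block adjusted p = 0.0629.

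Fgf7, keratinocyte growth factor, which mesenchymal cells secrete to act on epithelia, was among the genes with the largest rise in perirenal cells. It read 1232, 2274 and 1267 on the perirenal and 131, 52 and 35.4 on the epididymal arrays, 24.5-fold higher (log2 4.61 ± 0.39, adjusted p = 5.99e-05), and it is the only one of these 10 genes with a single tested probe set. Prrx1, a homeobox factor of limb and body wall mesenchyme, read 1321, 1791 and 1158 against 140, 185 and 61.7 (log2 3.58 ± 0.28), and its second probe set read 650, 757 and 579 against 6, 46.6 and 3.8. Thy1, a surface glycoprotein of fibroblasts, read 7151, 4627 and 7797 against 881, 688 and 283 (log2 3.52 ± 0.34), while its second and brighter probe set was higher by 0.87 ± 0.20. For Prrx1 and Thy1 all probe sets tested passed in the same direction. The amounts differed for Thy1. For Prrx1 they are not compared, since the epididymal signals of its second probe set were below 56.3.

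For the other 7 of the 10 largest risers the size of the difference depended on the probe set. Septin2, a filament-forming GTPase, was higher by 4.71 ± 0.43 on 1 probe set (1609, 1509 and 1846 against 125, 32.8 and 61.1) and by 0.36 ± 0.11 on the other. Sptbn1, β-spectrin of the membrane skeleton, was higher by 3.80 ± 0.24 and 2.51 ± 0.25 on a pair of probe sets and by 0.12 ± 0.16, not past the threshold, on the other. Elovl5, a fatty acid elongase, was higher by 4.38 ± 0.40 on 1 probe set (1265, 1267 and 1388 against 70.2, 142 and 24.6), whereas the other gave -0.09 ± 0.13. The same held for Rab31 (3.54 ± 0.26 and 0.34 ± 0.17), Canx (3.37 ± 0.31, with -0.39 ± 0.15 and 0.21 ± 0.16), Eif4g1 (3.31 ± 0.41 and -0.14 ± 0.13) and Scamp2 (3.30 ± 0.39 and -0.23 ± 0.14), where only the first value of each passed the threshold. For Elovl5, Rab31, Canx, Eif4g1 and Scamp2 the arrays therefore do not give 1 depot difference for the gene.

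**Figure D2:**
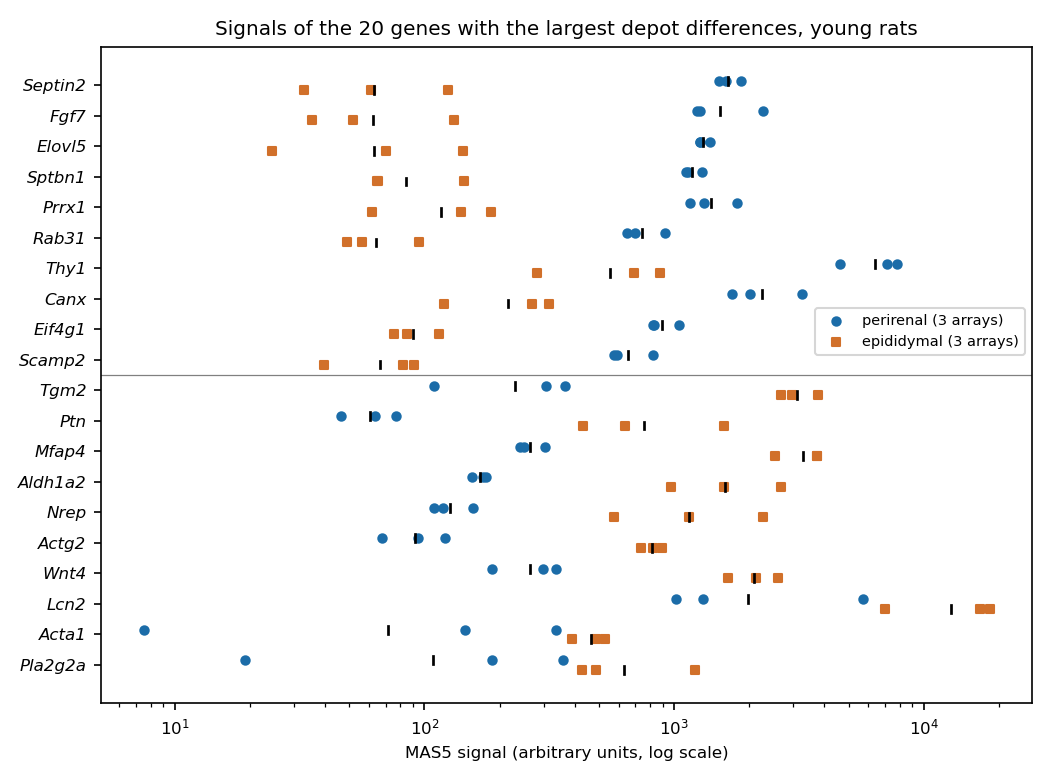
Signals (arbitrary units, log axis) of the 10 genes with the largest rise and the 10 with the largest fall in perirenal cells, blue circles for the 3 perirenal and orange squares for the 3 epididymal arrays of young rats, black ticks for geometric means. The groups do not overlap for any of the 20 genes, which the selection required; Acta1 and Pla2g2a have the widest perirenal spread, with lowest signals of 7.5 and 19.2.

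This disagreement was general. More than 1 probe set was tested for 1139 genes. All were higher for 89 of these genes and all lower for 26, some passed in a single direction for 571, calls in opposite directions occurred for 140, and no probe set passed for 313. The brightest probe set of each of these genes had a median difference of -0.03, with 214 higher and 230 lower. The dimmest had a median of 0.59, with 502 higher and 101 lower, and it was the more positive of the pair in 781 genes (68.6%), with dim groups kept in these counts and medians. Where on the transcript each probe set lies was not examined, and the part of RNA completeness in these values was not tested. For the groups of genes below, each gene is therefore counted once, by its brightest probe set. On that basis 2634 of 8002 genes (32.9%) passed, 1337 (16.7%) higher and 1297 (16.2%) lower, with a median of 0.02 and no overlap between the depots in 3806 genes (47.6%).

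**Figure D3:**
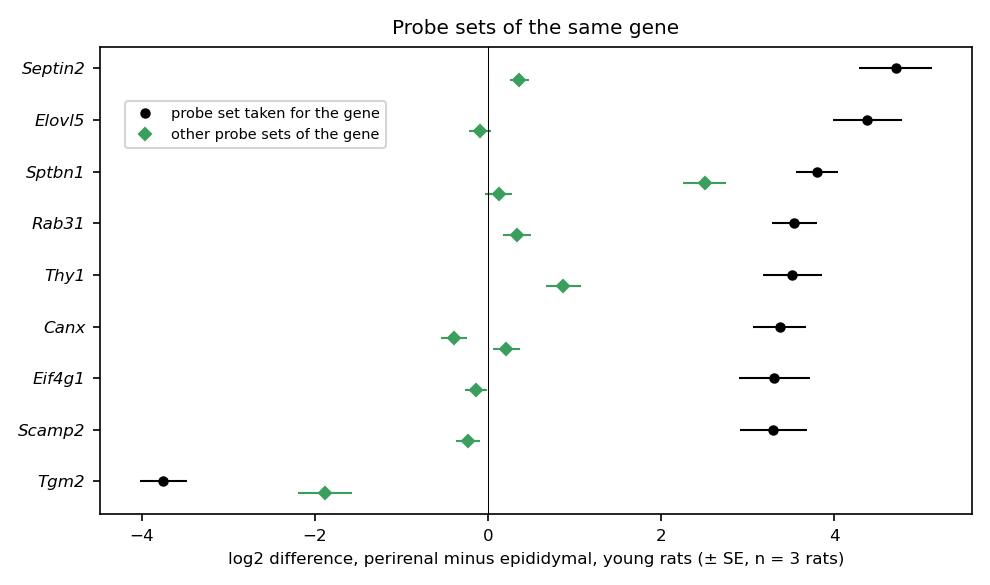
Log2 difference between depots (± SE, 3 rats) for the tested probe sets of the 9 genes that are among the 20 with the largest differences and have several probe sets whose groups both lie above 56.3. Black circles are the probe sets that put the gene among the 20 and green diamonds its others; for Elovl5, Eif4g1 and Scamp2 the other probe set is at -0.09, -0.14 and -0.23, while that of Tgm2 is at -1.89.

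Genes of smooth muscle and of the contractile apparatus were lower in perirenal cells as a group. Of 43 measured, 26 were lower and 3 higher (32.9% of all genes passed), the median difference was -0.73 against 0.02 for all genes, and it was -0.67, -0.79 and -0.60 in rats 1, 2 and 3. After quantile normalization the list median was -0.46, with 24 lower and 3 higher. With the mean of a gene's probe sets the list median was -0.51, with 22 lower and 4 higher. The members cover the actin filament, its motor and its regulators. Tpm2, a tropomyosin that lies along the actin filament, read 5194, 3846 and 3956 in perirenal and 18358, 13260 and 12293 in epididymal cells (log2 -1.75 ± 0.14, adjusted p = 4.73e-05). Mylk, the kinase that activates smooth muscle myosin, read 3046, 2819 and 2036 against 10200, 8210 and 7949 (log2 -1.75 ± 0.18). Flna, the actin crosslinker filamin A, read 8461, 7001 and 6126 against 16944, 16375 and 13683 (log2 -1.13 ± 0.10). The epididymal signals of these genes were all above the perirenal ones in each rat.

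The smooth muscle myosin heavy chain Myh11 was lower by -2.42, calponin Cnn1 by -2.09, desmin Des by -1.82, the myosin light chain Myl9 by -1.60, transgelin Tagln by -1.28 and smooth muscle α-actin Acta2 by -1.17. Genes of the cytoskeleton that most cells use were also lower, among them the non-muscle myosins Myh9 and Myh10 (both -0.98), γ-actin Actg1 (-0.73) and vinculin Vcl (-0.53). The 3 that were higher were the PDZ and LIM protein Pdlim5 (1270, 722 and 1008 against 297, 210 and 160, log2 2.18 ± 0.20), the integrin subunit Itga7 (1.34) and the kinase Rock2 (0.87). A second probe set of Pdlim5 gave -0.01 ± 0.33. Over the 44 members on the array the summed signal was 104971 to 124532 in perirenal and 184472 to 225183 in epididymal cells. In a culture of unsorted cells, fewer cells of a type and less RNA of a gene per cell cannot be told apart.

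**Figure D4:**
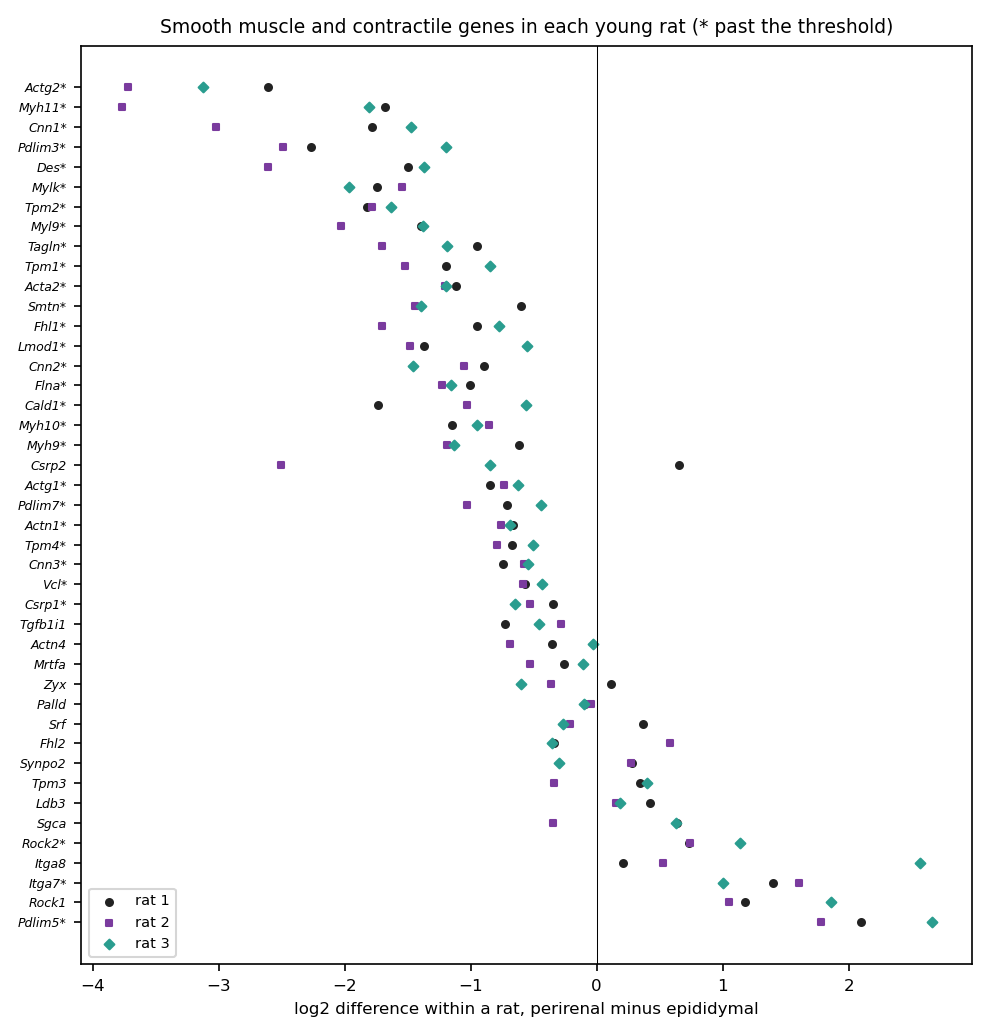
Log2 difference within each of the 3 young rats for the 43 measured smooth muscle and contractile genes, sorted by mean, with an asterisk on those past the threshold. The 26 called lower are negative in all 3 rats, and Csrp2, at the widest spread among the uncalled genes, has both signs.

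Many promoters of smooth muscle genes carry a CArG box, the motif bound by serum response factor. In the RefSeq promoters of the rat build GRCr8, which run from 250 bases before to 50 after each start, 548 of 33469 (1.64%) held the motif CC, then 6 letters A or T, then GG, which reads the same way on both strands. Of the 43 contractile genes 36 had a promoter in that table and 6 held the motif, 3 of them among the 21 lower genes with a promoter. The others with the motif were Srf, Fhl2 and Ldb3, none past the threshold, so the motif was in lower genes and in genes without a call. The stretches of the 3 lower genes, and that of Srf itself, are shown 5′ to 3′ on the strand of the gene with the motif in capitals. Those of Fhl2 and Ldb3 are not shown.
Actg1 (GRCr8, chr10:106120987-106121086, minus strand): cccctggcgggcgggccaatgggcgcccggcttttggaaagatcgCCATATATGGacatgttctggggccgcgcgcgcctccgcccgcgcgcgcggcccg
Cnn2 (GRCr8, chr7:10370329-10370428, minus strand): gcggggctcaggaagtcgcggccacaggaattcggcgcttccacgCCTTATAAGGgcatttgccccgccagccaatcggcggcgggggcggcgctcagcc
Fhl1 (GRCr8, chrX:139638349-139638448, plus strand): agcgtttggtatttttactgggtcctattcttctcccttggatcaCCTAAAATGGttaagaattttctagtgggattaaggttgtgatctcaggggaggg
Srf (GRCr8, chr9:21923950-21924049, plus strand): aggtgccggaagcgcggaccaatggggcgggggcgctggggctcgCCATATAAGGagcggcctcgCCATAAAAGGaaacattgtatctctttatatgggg
The motif lies at -90 to -81 from the start in Actg1, at -71 to -62 in Cnn2 and at -102 to -93 in Fhl1, and the first of 2 in Srf at -81 to -72. Actg1 differed by -0.73 ± 0.10, Cnn2 by -1.14 ± 0.13 and Fhl1 by -1.14 ± 0.27, and Srf by -0.04 ± 0.18 (adjusted p = 0.884). Fhl2 differed by -0.04 ± 0.18 (adjusted p = 0.892) and Ldb3 by 0.25 ± 0.53 (adjusted p = 0.731). A match is a description of the letters in this window and says nothing of binding in these cells.

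Structural genes of the extracellular matrix were lower in perirenal cells in 3 groups. Among fibrillar and associated collagens 11 of 16 were lower and 3 higher (median -0.67), among basement membrane genes 14 of 19 were lower and none higher (median -0.70), and among genes of elastic fibres and microfibrils 12 of 19 were lower and none higher (median -0.68). After quantile normalization these counts were 5, 11 and 12 lower, so the lower collagens fell from 11 to 5, and 1 basement membrane gene was then higher. Leaving out 1 rat gave 9 to 11, 10 and 9 to 10 lower genes. With the mean of a gene's probe sets the collagens were 9 lower and 4 higher. Basement membrane genes were then 13 lower and 2 higher, and elastic fibre genes 11 lower and 0 higher. Over all genes, by the brightest probe set, 16.2% were lower and 16.7% higher.

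Col1a1, the main chain of type I collagen, read 20850, 18850 and 21653 in perirenal and 37692, 40124 and 31794 in epididymal cells (log2 -0.83 ± 0.12). After quantile normalization Col1a1 differed by -0.15 with adjusted p = 0.306, so its call depends on the scaling. Col6a3, a chain of the beaded microfibrils, read 5942, 3796 and 4238 against 10443, 8018 and 6803 (log2 -0.86 ± 0.13), and Col8a2, a short-chain collagen, was lower by -1.02 ± 0.17. Col14a1, a fibril-associated collagen, was lower by -0.90 ± 0.15 with a second probe set at -1.18 ± 0.16. Col5a1, the regulator of fibril diameter, had probe sets past the threshold in opposite directions, -1.23 ± 0.21 and 0.99 ± 0.21. The 3 collagens that were higher were Col2a1 of cartilage, with epididymal signals below 56.3 on geometric mean, Col8a1 (1.17) and Col27a1 (1.13).

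In the basement membrane, Lamb1, the β1 chain of laminin, read 3231, 2954 and 2514 against 7400, 6210 and 6717 (log2 -1.23 ± 0.12, adjusted p = 0.000109). Col4a2, a chain of the type IV collagen network, read 2554, 7274 and 2950 against 8114, 11174 and 9150 (log2 -1.31 ± 0.18). Rat 2 was high in both depots, and its difference had the same sign as those of the other rats. Col7a1, the anchoring fibril collagen, read 115, 171 and 81.3 against 273, 1047 and 792 (log2 -2.38 ± 0.35), and Lama4, a laminin chain of vessels and fat, was lower by -0.80 ± 0.12. Nid1, which links laminin to type IV collagen, had 1 probe set at -1.15 ± 0.13 and another at 2.19 ± 0.16, both past the threshold.

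Among elastic fibre genes other than Mfap4, Loxl1, which crosslinks elastin, read 3598, 4263 and 4636 against 10420, 8974 and 9941 (log2 -1.24 ± 0.14). Mgp, matrix Gla protein, an inhibitor of calcification, read 3664, 14101 and 9296 against 19600, 24060 and 24100 (log2 -1.52 ± 0.24). Ltbp4, a latent TGF-β binding protein, was lower by -1.73 ± 0.27 and ranged from 68.2 to 89.5 in perirenal and 172 to 384 in epididymal cells. The groups did not overlap for any of these 3 genes. Fbn1, fibrillin 1, was lower by -1.11 ± 0.14 on its brightest probe set and higher by 0.53 ± 0.18 on another.

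Enzymes that modify and crosslink collagen were lower for 10 of 20 and higher for 2 (median -0.47). Beside Tgm2 and Loxl1 they included Pcolce, which enhances procollagen cleavage (log2 -0.87 ± 0.10), the prolyl hydroxylase P3h3 (-1.10 ± 0.13) and the lysyl hydroxylase Plod2 (-0.99 ± 0.15). Matrix proteases and their inhibitors were lower for 10 of 29 and higher for 3 (median -0.22). Plat, tissue plasminogen activator, read 468, 412 and 480 in perirenal and 1663, 1764 and 1627 in epididymal cells (log2 -1.90 ± 0.15, adjusted p = 3.52e-05). Tfpi2, a protease inhibitor, was lower by -1.64 ± 0.28, the metalloprotease Adam15 by -1.10 ± 0.16 and Timp1, an inhibitor of metalloproteases, by -0.75 ± 0.13. Timp1 was at -0.33 with adjusted p = 0.0932 after quantile normalization. Without 1 of the rats the 5 higher genes of both groups were 0 to 2 in the proteases and 0 in the collagen enzymes.

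Matricellular and adhesive proteins went both ways, 3 higher and 7 lower of 19 (median -0.17), and without rat 2 the lower ones were 4. Spp1, the secreted phosphoprotein osteopontin, read 2453, 8425 and 3120 in perirenal and 478, 1592 and 522 in epididymal cells (log2 2.45 ± 0.13, adjusted p = 9.18e-06). Rat 2 was high in both depots, and the difference was similar in each rat. Tnc, the adhesion-modulating tenascin C, read 3712, 4467 and 3323 against 14909, 14721 and 10511 (log2 -1.80 ± 0.11, adjusted p = 1.71e-05). Ccn2, connective tissue growth factor, was lower by -1.30 ± 0.18, Spon1 by -0.74 ± 0.16 and fibronectin Fn1 by -0.64 ± 0.11, the last at -0.21 with adjusted p = 0.147 after quantile normalization.

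Proteoglycans and the enzymes of their sugar chains were higher for 5 and lower for 8 of 31 (median -0.14, with the other sign after quantile normalization, at 0.10), and without rat 1 the higher ones were 2. Hs6st1, a heparan sulphate sulphotransferase, read 782, 1021 and 814 against 3616, 3504 and 5358 (log2 -2.24 ± 0.22). The small leucine-rich proteoglycans Bgn, Lum and Fmod, which bind collagen fibrils, were lower by -0.97 ± 0.10, -1.02 ± 0.11 and -1.90 ± 0.27. Fmod was the most variable of them, at 1355, 3966 and 3516 on the epididymal arrays. Chpf2, a chondroitin polymerising factor, read 480, 489 and 643 in perirenal cells and 50.6, 64.1 and 9.7 in epididymal cells, around or below 56.3, so no fold is given for it.

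Developmental transcription factors differed in both directions. Of 19 measured homeobox and T-box genes, 7 were higher and 1 lower (median 0.65, or 0.35 after quantile normalization, where 6 were higher and 3 lower). Msx1, a homeobox factor of mesenchymal progenitors, read 398, 296 and 393 in perirenal and 131, 134 and 134 in epididymal cells (log2 1.43 ± 0.24). Tbx3, a T-box repressor, read 209, 236 and 213 against 120, 121 and 101 (log2 0.95 ± 0.20). Hoxa5, a Hox gene of the anterior trunk, was the lower one, at 276, 338 and 294 against 527, 540 and 1479 (log2 -1.31 ± 0.27, or -0.80 without rat 3). Hoxa10, a Hox gene of the posterior trunk, read 281, 361 and 449 in perirenal cells and 103, 11 and 16.5 in epididymal cells, with adjusted p = 0.000899. The 7 higher genes were Hoxa10, Prrx1, Msx1, Tbx3, Hoxc8 (1.42), Meox2 (1.11) and Prrx2 (0.66).

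Other mesodermal factors were higher for 6 and lower for 5 of 17 (median 0.42), and the higher ones were 3 or 4 when 1 rat was left out. Gata2, a zinc finger factor that holds preadipocytes undifferentiated, read 157, 104 and 169 in perirenal and 445, 399 and 458 in epididymal cells (log2 -1.63 ± 0.20). Tcf21, a basic helix-loop-helix factor of visceral mesoderm, read 121, 119 and 120 against 343, 215 and 375 (log2 -1.34 ± 0.23). Both were without overlap. Wt1, a factor of urogenital mesoderm and mesothelium, read 324, 229 and 371 against 968, 1096 and 1119 (log2 -1.81 ± 0.22), although a dimmer probe set of Wt1 passed in the other direction, at 109, 92.9 and 115 against 48.3, 33.2 and 64.6. Nr2f2, the orphan receptor COUP-TFII, was split in the same way, at -1.29 ± 0.17 and 1.39 ± 0.25. Hand2, another basic helix-loop-helix factor, read 149, 377 and 135 against 63.7, 46.9 and 28.0 (adjusted p = 0.00225).

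In the retinoid system 4 of 17 measured genes were higher and 2 lower (median 0.39), 35.3% of the list against 32.9% of all genes. The 2 lower ones, Aldh1a2 and Dhrs3, act on retinaldehyde: Aldh1a2 oxidises it and Dhrs3 reduces it back to retinol. Dhrs3 read 298, 218 and 240 in perirenal and 1516, 1068 and 1037 in epididymal cells (log2 -2.25 ± 0.21, adjusted p = 9.2e-05). The higher genes were weaker calls. Rdh10, which forms retinaldehyde, was higher by 1.20 ± 0.28 (adjusted p = 0.0521 after quantile normalization and 0.0612 without rat 3), and the receptor Rxrg by 1.48 ± 0.39 (adjusted p = 0.0597, and 0.0726 and 0.0775 without rats 2 and 3). The binding protein Crabp1 read 432, 218 and 392 against 11.4, 57.4 and 123, with adjusted p = 0.012, or 0.08 without rat 1. After quantile normalization 1 gene of the list was higher and 2 lower.

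Of the FGF ligands, receptors and feedback genes, 3 of 10 were higher and 1 lower (median 0.19). Beside Fgf7, Fgf2, a basic fibroblast growth factor, read 266, 246 and 325 in perirenal and 120, 135 and 104 in epididymal cells (log2 1.22 ± 0.21). Fgfrl1, a receptor without a kinase, was higher by 1.39 ± 0.15. Spry2, a feedback inhibitor that FGF signalling induces, read 252, 163 and 308 against 790, 564 and 1525 (log2 -1.92 ± 0.24), the other direction from Fgf7 and Fgf2.

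Among ligands and receptors of the PDGF, EGF, HGF and VEGF families 7 of 23 were higher and 4 lower (median 0.10, and -0.05 after quantile normalization). Vegfd, a lymphatic growth factor, read 1177, 1698 and 1992 in perirenal and 252, 208 and 207 in epididymal cells (log2 2.84 ± 0.36, adjusted p = 0.000377). Vegfb was higher by 1.27 ± 0.16. Egfr, the EGF receptor, read 813, 1100 and 902 against 2360, 1879 and 1850 (log2 -1.12 ± 0.18). For Vegfa the probe sets disagreed, with -1.01 ± 0.17 and 2.66 ± 0.37, so its direction is not given.

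In the insulin-like growth factor axis 1 gene was higher and 2 lower of 17 (median -0.16), 17.6% of the list against 32.9% of all genes. Igf1, a ligand that promotes growth and differentiation of fat precursors, read 1212, 3516 and 2349 in perirenal and 9518, 9176 and 11965 in epididymal cells (log2 -2.24 ± 0.29, adjusted p = 0.000437), and a second probe set of Igf1 was lower by -2.50 ± 0.30. The binding protein Igfbp7 was lower by -0.93 ± 0.12. Igf2r, the receptor that clears IGF2, was higher by 0.86 ± 0.13 on 1 probe set and at -0.02 ± 0.19 on the other. Igf1 is therefore a gene whose probe sets gave nearly the same difference.

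Wnt pathway genes were higher for 6 and lower for 5 of 25 (median -0.05), or 3 to 5 in each direction when 1 rat was left out. Beside Wnt4, the secreted Wnt antagonist Sfrp1 was lower, at 7289, 10147 and 7268 against 17029, 14168 and 11852 (log2 -0.80 ± 0.13). The coreceptor Lrp6 read 424, 528 and 352 against 123, 144 and 96.9 (log2 1.84 ± 0.32), and the transcription factor Tcf7l2 was higher by 1.10 ± 0.24. Ctnnb1, β-catenin, which carries the signal to the nucleus, was lower by -0.78 ± 0.13 on its brightest probe set and higher by 1.29 ± 0.20 and 1.04 ± 0.14 on the other two.

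Of 43 genes of the TGF-β and BMP pathway 11 were higher and 16 lower (median -0.11); the counts ranged from 5 to 9 higher and 9 to 14 lower when 1 rat was left out. Among the ligands Tgfb3 read 599, 294 and 443 in perirenal and 1575, 1402 and 908 in epididymal cells (log2 -1.56 ± 0.24), and Tgfb2 was lower by -2.49. Bmp6 read 547, 271 and 598 against 1685, 1067 and 1468 (log2 -1.63 ± 0.17), with a second probe set at -0.68 ± 0.26 that did not pass. Bmp7 (1.06) and the activin subunit Inhba (1.43) were higher. Receptors went both ways: the TGF-β coreceptor Tgfbr3 read 607, 958 and 799 against 163, 179 and 95.6 (log2 2.46 ± 0.22), whereas the coreceptor Eng was lower by -1.10 ± 0.14. Smad6, which inhibits BMP signalling, read 372, 366 and 533 against 58.0, 84.5 and 49.4 (log2 2.74 ± 0.26).

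Chemokines, cytokines and their receptors were higher for 10 and lower for 3 of 39 (median 0.31). That was 33.3% of the list against 32.9% of all genes. Il1r1, the receptor of interleukin 1, read 525, 756 and 597 in perirenal and 40.4, 52 and 5.6 in epididymal cells (adjusted p = 0.000145), where the epididymal signals were below 56.3 and no fold is given. A second probe set of Il1r1 read 442, 641 and 427 against 63.5, 35.5 and 53.6 and also passed. Csf1, the growth factor of macrophages, read 687, 496 and 321 against 260.0, 275 and 127 (log2 1.20 ± 0.22), and the chemokine Ccl4 was higher by 1.28 ± 0.26. The receptors of 2 type 2 cytokines were lower: Il4r read 864, 1213 and 835 against 2030, 3389 and 3582 (log2 -1.61 ± 0.21), and Il1rl1, the receptor of interleukin 33, 2468, 1454 and 2813 against 5794, 5354 and 7555 (log2 -1.51 ± 0.21). A second probe set of Il1rl1 was at 0.87 ± 0.34, not past the threshold.

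Innate sensing and acute phase genes were higher for 4 and lower for 11 of 27 (median -0.27). Cd14, the coreceptor of lipopolysaccharide, read 799, 940 and 775 in perirenal and 143, 112 and 88.9 in epididymal cells (log2 2.89 ± 0.19, adjusted p = 1.86e-05). Cd55, which protects cells from complement, read 2395, 2925 and 2032 against 621, 604 and 643 (log2 1.96 ± 0.15), and its second probe set was higher by 2.77 ± 0.13. Ptgs1, cyclooxygenase 1, was higher by 1.56 ± 0.24. Complement C3 was lower, at 453, 706 and 773 against 1069, 1950 and 1814 (log2 -1.31 ± 0.17). Olr1, the receptor of oxidised LDL, read 51.5, 31.9 and 55.5 on the perirenal arrays, below 56.3, and 896, 373 and 509 on the epididymal arrays.

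**Figure D5:**
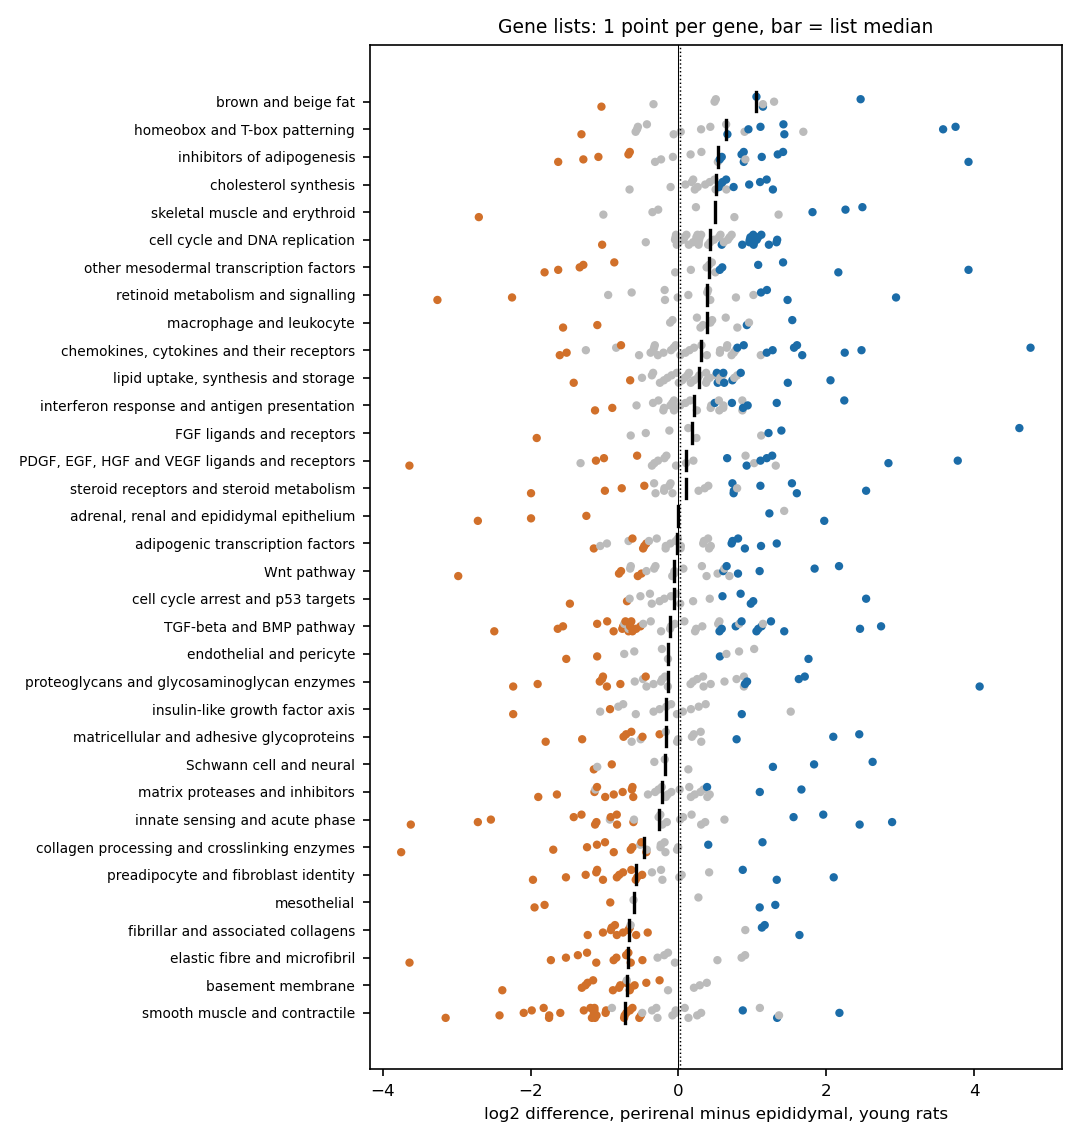
Log2 difference between depots in young rats for each gene of the 34 lists, 1 probe set per gene, with the list median as a black bar and the median of all genes as a dotted line at 0.02; blue points are past the threshold and higher in perirenal cells, orange points past it and lower, grey points not past it. Contractile, basement membrane, elastic fibre and collagen genes have medians of -0.73 to -0.67, and the brown and beige list, with 9 genes, the highest at 1.06, which is -0.69 when the dimmest 50% of probe sets are dropped; genes with a group below 56.3 are drawn at their fitted values.

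Regulators of fat cell differentiation differed in both directions. Of 28 adipogenic transcription factors 6 were higher and 5 lower (median -0.02), 39.3% of the list against 32.9% of all genes, and the lower ones were 1 or 2 when 1 rat was left out or the rat block removed. Cebpb read 1964, 2141 and 2604 in perirenal and 3246, 3145 and 3904 in epididymal cells (log2 -0.62 ± 0.12, adjusted p = 0.00401). Pparg, the master regulator, read 168, 235 and 84.9 against 211, 171 and 133, a difference of -0.17 ± 0.34 with adjusted p = 0.714. Its groups overlapped. Cebpd read 1061, 1135 and 1162 against 1894, 1275 and 2354 (-0.67 ± 0.27, adjusted p = 0.0778, or 0.0313 when only the 6 young arrays were fitted), and a second probe set of Cebpd was higher by 0.66 ± 0.20. Cebpa read 13.1, 89.1 and 61.9 against 2.1, 4.0 and 7.2 and was among the dimmest 30% that were not tested.

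Of the other factors, Srebf1, which drives lipid synthesis, read 1256, 1320 and 1142 against 774, 701 and 781 (log2 0.72 ± 0.15, with a second probe set at 1.92 ± 0.22). Nr1h2, the oxysterol receptor LXRβ, was higher by 0.90 ± 0.16 and the coactivator subunit Med1 by 0.73 ± 0.17, the latter with adjusted p = 0.0601 without rat 2. Zfp423, a factor that commits cells to the preadipocyte fate, had probe sets in opposite directions, at 1.33 ± 0.21 and -0.90 ± 0.26. Inhibitors of adipogenesis were higher for 9 and lower for 5 of 21 (66.7% of the list against 32.9% of all genes, median 0.53). The counts were 5 to 6 and 3 to 4 when 1 rat was left out. After quantile normalization 5 were higher and 5 lower (median 0.35). With the dimmest 50% dropped 5 were higher and 5 lower of 16 (median 0.045). These inhibitors include Gata2 and Nr2f2 above, Irf3 (-1.08 ± 0.17), the Notch effector Rbpj (0.88 ± 0.16) and Twist1, at 263, 220 and 227 against 47.6, 39.3 and 2.0. Ddit3, a C/EBP family member that blocks differentiation, read 243, 189 and 170 against 592, 210 and 256 (-0.68 ± 0.22, adjusted p = 0.0383). That call needed the rat block and rat 1, since adjusted p was 0.130 without the block, 0.269 without rat 1 and 0.0977 without rat 3.

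Celf1, an RNA-binding protein that acts on C/EBPβ translation, differed by 0.31 ± 0.17 (adjusted p = 0.175, or 0.0406 without rat 3). The preadipocyte marker Pdgfra read 3837, 4652 and 4998 against 5355, 4488 and 7812 (-0.36 ± 0.19, adjusted p = 0.162). Dlk1, a secreted inhibitor of adipogenesis, read 67.8, 120 and 108 against 32.2, 12.0 and 26.7 and was not tested. Il6 differed by -0.04 ± 0.40 (adjusted p = 0.951), and without rat 3, whose epididymal signal was 2317 against 711 and 804 in rats 1 and 2, by 0.77 (adjusted p = 0.0495). Tnf read 5.3 to 35.9 in perirenal and 29.3 to 34.8 in epididymal cells, below 56.3 on every array.

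Genes of lipid uptake, synthesis and storage were higher for 8 and lower for 2 of 37 (median 0.28), or 5 to 8 and 0 to 3 when 1 rat was left out. The share past the threshold was 27.0% of the list against 32.9% of all genes. Slc2a4, the insulin-responsive glucose carrier GLUT4, read 264, 309 and 268 in perirenal and 33.1, 113 and 81.0 in epididymal cells (log2 2.06 ± 0.34), and a second probe set read 131, 184 and 151 against 39.4, 48 and 47.2. Cav1, the coat protein of caveolae, read 5972, 7260 and 6765 against 4334, 3597 and 4119 (log2 0.73 ± 0.14), and a dimmer probe set read 4564, 5532 and 5894 against 96.3, 93.7 and 19. The acyl-CoA synthetase Acsl5 was higher by 0.62 ± 0.13 and Bscl2, seipin of the lipid droplet, by 0.53 ± 0.12. Vldlr, a lipoprotein receptor, read 405, 202 and 232 against 1444, 626 and 398, with overlap (log2 -1.42 ± 0.32, adjusted p = 0.00795, 0.0652 without the rat block and 0.0545 without rat 1). Its other probe sets gave -1.03 ± 0.28, past the threshold, and 0.02 ± 0.28, not past it.

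The classical markers of the fat cell did not pass. Lpl, lipoprotein lipase, read 4655, 8222 and 6588 against 8638, 7266 and 8473 (-0.36 ± 0.21, adjusted p = 0.2). Fabp4, the fatty acid binding protein of adipocytes, read 27.7, 670 and 86.5 against 48.2, 117 and 54.3 (0.80 ± 0.70, adjusted p = 0.397), and only rat 2 had a high perirenal signal. Without rat 2 Fabp4 differed by -0.06. Brown and beige fat genes were higher for 3 and lower for 1 of 9 measured (median 1.06, but -0.69 when the dimmest 50% of probe sets were dropped). They were Ucp3 (132, 185 and 162 against 24, 20.4 and 47.7), Bmp7 (1.06 ± 0.26, adjusted p = 0.0779 without rat 2), Kcnk3 (1.14 ± 0.38) and, lower, Tnfrsf9 (-1.04 ± 0.34). Kcnk3 and Tnfrsf9 had adjusted p of 0.0406 and 0.0379, and 0.254 and 0.264 without rat 3. Ucp1, the uncoupling protein of brown fat, read 60.7, 90.9 and 87.5 against 6.0, 26.0 and 6.8 and was not tested.

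Steroid receptors and enzymes were higher for 7 and lower for 4 of 22 (median 0.10, and -0.05 after quantile normalization). Hsd11b1, which regenerates active glucocorticoid, read 3290, 5750 and 3452 in perirenal and 1488, 2321 and 1880 in epididymal cells (log2 1.11 ± 0.13, adjusted p = 0.00029). The nuclear receptor Nr4a3 was higher by 1.54 ± 0.30 and Tspo, a protein of the outer mitochondrial membrane, by 0.75 ± 0.11. Star, which delivers cholesterol to the inner mitochondrial membrane, read 202, 309 and 127 against 1079, 802 and 576 (log2 -1.99 ± 0.22), and its second probe set was lower by -0.73 ± 0.21. Cyp1b1, which hydroxylates oestrogens, was lower by -0.99 ± 0.16.

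Cholesterol synthesis genes were higher for 9 of 21 and lower for none (median 0.50). Lss, lanosterol synthase, read 1534, 1665 and 2247 against 647, 901 and 821 (log2 1.19 ± 0.16). Sc5d, a sterol desaturase, was higher by 1.28 ± 0.20 on 1 probe set and 0.34 ± 0.18 on the other. Msmo1, a sterol methyl oxidase, was higher by 0.96 ± 0.20, the thiolase Acat2 by 1.11 ± 0.25 (adjusted p = 0.0545 without rat 1) and the squalene synthase Fdft1 by 0.60 ± 0.14 (adjusted p = 0.0597 without rat 3). The count depended on the rats: 4 were higher without rat 1, 10 without rat 2, 4 without rat 3 and 6 without the rat block.

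Cell cycle and DNA replication genes were higher for 14 and lower for 1 of 43 (34.9% of the list against 32.9% of all genes). However, the rats differed, with list medians of 1.24 in rat 1, 0.28 in rat 2 and -0.11 in rat 3. Without rat 1 the list median was 0.07, with 10 higher and 3 lower, and without rat 3 it was 0.77, with 19 higher. Ccnd1, the cyclin of the G1 phase, read 1890, 1857 and 1832 in perirenal and 518, 968 and 809 in epididymal cells (log2 1.33 ± 0.23), and its other probe sets were higher by 1.72 ± 0.29 and 1.21 ± 0.26. The mitotic cyclin Ccnb1 was higher by 1.01 ± 0.19, Tyms, which makes thymidylate, by 1.08 ± 0.20 and the polymerase subunit Pole by 1.22 ± 0.23. Rrm1, a subunit of ribonucleotide reductase, was the lower one, at 631, 888 and 973 against 977, 2078 and 2295 (log2 -1.03 ± 0.15).

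Genes of cell cycle arrest were higher for 5 and lower for 2 of 18 (median -0.06), or 1 to 4 higher when 1 rat was left out. Cdkn1b, the inhibitor p27, read 977, 961 and 816 against 2912, 2571 and 2169 (log2 -1.47 ± 0.18), while a dim second probe set of Cdkn1b did not pass. Gadd45b was lower by -0.69 ± 0.15 and Cdkn2c higher by 0.84 ± 0.17. Gadd45a was higher by 1.01 ± 0.28 (adjusted p = 0.121 without rat 3), and Cdkn2b read 133, 124 and 103 against 17.1, 76.6 and 6.6 (adjusted p = 0.0083, or 0.0512 without rat 3). Interferon-induced and antigen presentation genes were higher for 6 and lower for 2 of 30 (26.7% of the list against 32.9% of all genes). Of these genes 1, 2 and 3 were higher without rats 1, 2 and 3. Ifitm1, a membrane protein that blocks viral entry, was lower by -0.89 ± 0.14 and Gbp2, an interferon-induced GTPase, by -1.13 ± 0.23, while Ifit1 read 238, 207 and 183 against 80.7, 49.9 and 21.0. RT1-DMb (0.87 ± 0.22) and Usp18 (0.94 ± 0.26) were higher with adjusted p of 0.0113 and 0.0194, and of 0.0632 and 0.0809 without rat 2.

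The labelled cell type was set against its markers. Of 24 preadipocyte and fibroblast markers on the array 22 were tested, none was below 56.3 on all 6 arrays, and 3 were higher and 13 lower in perirenal cells (median -0.57, or -0.21 after quantile normalization). Their summed signal was 137569 to 154709 in perirenal and 218395 to 230542 in epididymal cells. The sum does not show each marker in both depots. Pi16 read 22.3, 8.4 and 69.5 in perirenal and 85.9, 91.1 and 99.6 in epididymal cells. Dlk1 above was below 56.3 on every epididymal array. Vim, vimentin, read 13878, 13295 and 13039 against 24398, 21792 and 23885 (log2 -0.80 ± 0.09), and Itgb1, the β1 integrin, 4649, 5066 and 4605 against 11862, 12048 and 10311 (log2 -1.25 ± 0.10), with a second probe set of Itgb1 at -0.19 ± 0.20. Cd44, the hyaluronan receptor, was the reverse, at 1824, 1517 and 1328 against 407, 483 and 236 (log2 2.10 ± 0.20), and its second probe set was higher by 1.89 ± 0.21.

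Markers of other cells the digest could hold were dim in part. Of 27 macrophage and leukocyte genes 11 were below 56.3 on all 6 arrays, among them Ptprc (14.1 to 30.5) and Itgam (6.9 to 36.6), and the summed signal was 2270 to 3833 in perirenal and 1890 to 2866 in epididymal cells. Other genes of the list were brighter on every array, among them Lyz2 (118 to 455), Fcer1g (163 to 354) and Csf1r (83.5 to 192). In this list 2 genes were higher and 2 lower of 14 (28.6% of the list against 32.9% of all genes). Arhgdib (0.93 ± 0.17) and Cd4 (159, 155 and 107 against 39.3, 72.1 and 37.8) were higher and Cd68 (35.5, 170 and 21.5 against 132, 234 and 108) was lower, and without the rat block their adjusted p was 0.105, 0.0535 and 0.0682. Fcgr2b was lower by -1.10 ± 0.38 (adjusted p = 0.0451, and 0.201 without rat 3). The labels state that macrophage markers were alike across depots and ages.

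Endothelial and pericyte genes were higher for 2 and lower for 2 of 11 (36.4% of the list against 32.9% of all genes). Their summed signals were 3166 to 3566 against 3928 to 4389. Pecam1, which defines endothelium, was below 56.3 on every array, at 9.2 to 47.0, whereas Ramp2 of the same list read 636 to 898. Notch3, a pericyte receptor, read 210, 299 and 213 against 56.7, 125 and 48.5 (log2 1.76 ± 0.25), Egfl7 was higher by 0.56 ± 0.16 (adjusted p = 0.139 without rat 3), and Abcc9 was lower by -1.52 ± 0.19 with a dimmer probe set past the threshold in the other direction (111, 115 and 93.4 against 52.1, 61 and 47). In the Schwann cell and neural list 3 of 9 were higher and 2 lower, and Sox10, which defines Schwann cells, was at 8.7 to 34.1. S100b, a calcium-binding protein also made by fat cells, read 663, 677 and 489 against 176, 190 and 145 (log2 1.84 ± 0.21), and Cryab, a small chaperone, was lower by -0.90 ± 0.20. The other 3 were weaker: Mag (1.28 ± 0.36, adjusted p = 0.131 without rat 3), Gfap (152, 183 and 222 against 47.4, 98.0 and 5.6) and Egr2, lower by -1.14 ± 0.39 (adjusted p = 0.222 without the rat block) with a dimmer probe set past the threshold in the other direction (144, 73.5 and 151 against 42, 61.5 and 22.8). Summed signals of that list were 17322 to 17589 against 18182 to 26542.

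Mesothelial markers, the lining cells of the body cavity, were higher for 2 and lower for 3 of 7 (median -0.61, but 0.41 in rat 1), with summed signals over 16 genes of 2906 to 3775 against 3473 to 5120. Msln, mesothelin, read 395, 456 and 379 in perirenal and 870, 801 and 665 in epididymal cells (log2 -0.92 ± 0.18). Wt1 above was lower on its brightest probe set, while a dimmer one passed in the other direction. Krt8, a keratin of simple epithelia, read 65.8, 96.0 and 66.5 against 79.6, 543 and 556 (log2 -1.95 ± 0.48, adjusted p = 0.0798 without rat 2 and 0.096 without rat 3). The epithelial genes Krt18 (76.6, 277 and 200) and Epcam (58.6, 165 and 112) were likewise highest on the epididymal arrays of rats 2 and 3, where Cdh1 was at 100 and 75.7 against 3.7 in rat 1. Krt7 read 360, 1195 and 594 on the epididymal arrays. Krt19 was high there in rat 2 only (9.2, 124 and 9.2), and Krt5 was flat (70.7, 70.4 and 71.3). Calb2, which was not tested, read 123, 140 and 97.2 in perirenal and 48.5, 56.5 and 7.2 in epididymal cells. Ezr, the membrane linker ezrin, was higher by 1.10 ± 0.16, and Muc1 read 146, 103 and 142 against 43.6, 44.6 and 72.4 (adjusted p = 0.0096, or 0.0621 without rat 1).

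The list of adrenal, renal and epididymal epithelium had 25 genes on the array, of which 6 were tested, with 2 higher and 3 lower. Its summed signal was 3767 to 8385 against 10152 to 20259, most of it from Lcn2 on the epididymal arrays. Aqp1, a water channel, read 784, 229 and 617 in perirenal and 192, 104 and 92.1 in epididymal cells (log2 1.97 ± 0.31), and a second probe set was higher by 3.08 ± 0.38. Clu (-1.25 ± 0.30) and the corticosteroid enzyme Cyp11b1 (1.23 ± 0.36) overlapped between the depots and had adjusted p of 0.0518 and 0.0553 without the rat block, and Cyp11b1 was at 0.73 without rat 3. The defining factor of the adrenal cortex, Nr5a1, was at 1.8 to 3.7 on the 6 arrays, but other dim markers were higher in perirenal cells without overlap. The steroid enzyme Cyp11a1 read 86.5, 135 and 146 against 43.2, 43.7 and 5.5, the steroid enzyme Cyp21a1 54.9, 74.8 and 79.7 against 7.9, 12.7 and 15, and the renal factor Pax8 55.2, 56.8 and 52.9 against 3.9, 14.5 and 3.9. Lack of overlap was seen in 49.8% of all tested probe sets, which these dim ones were not. Without the filter on dim probe sets 7 of 25 genes of the list were higher and 4 lower (median 1.19). Over all 15866 probe sets 2500 were then higher and 1650 lower (median 0.17). Those include bright probe sets, whereas only 6 of the 25 genes passed the filter, so the medians are not like for like. In the skeletal muscle and erythroid list 3 of 10 were higher and 1 lower, and without rat 2 none passed. Ckm read 116, 172 and 187 in perirenal and 104, 20.3 and 16 in epididymal cells. Atp2a1 read 127, 188 and 184 against 112, 19.5 and 11.4, and Tnni1 171, 166 and 241 against 118, 15.2 and 87.6. In each of these genes rat 1 had the smallest difference. The lower gene was Acta1, described above, and Myod1 was at 1.6 to 13.9. The part of these other cells in the depot differences was not tested.

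The difference between the depots was set against that in the old rats by a test of the difference itself. None of the 11106 probe sets passed (0% called), while 722 (6.50%) had an unadjusted p below 0.05. Of the 3927 probe sets called in young rats, 3833 (97.6%) had the same sign in old rats, whose arrays show the same split in actin ratio. The 4 with the smallest p were Ythdf2, Cd55, Rarres2 and Il17re, with adjusted p of 0.417 to 0.502. Ythdf2, a reader of methylated RNA, differed by 1.21 in young and -0.10 in old rats, and the second Cd55 probe set by 2.77 and 1.61. Another probe set of Ythdf2 differed by 0.38 ± 0.17 between the depots in young rats, not past the threshold. Rarres2, the adipokine chemerin, read 5695, 8447 and 5229 against 5694, 8786 and 7402 in young rats (-0.19 ± 0.12), and the difference in old rats was 0.86. Il17re read 21.6, 36.6 and 19.9 against 428, 226 and 277 in young rats, so its young perirenal signals were all below 56.3 and no difference between ages is read from it. Among the 20 genes with the largest differences in young rats, Pla2g2a alone had the other sign in old rats, at 0.64, and that change had an unadjusted p of 0.00231 and an adjusted p of 0.651.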

How the data were processed

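Preadipocyte RNA of 12 cultures was copied with an oligo-dT primer, amplified, labelled with biotin and hybridised to 1-colour rat arrays, per the labels' protocols. The deposited values are intensities, the MAS5 signals per the submitters' processing notes, with no version given, and each array's trimmed mean was near 500. No genome build, scan date or batch is named in those notes or in the labels. Probe set names came from GEO's platform annotation, with symbols updated through RefSeq: of 15866 probe sets that are not controls, 12783 had 1 gene symbol, 312 several and 2771 none.

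The log2 of each signal was taken with nothing added (2 zeros, both on perirenal arrays of a rat numbered 3, were set to 0.1). Control probe sets and the dimmest 30% by mean over 12 arrays (below a signal of 56.3) were dropped, leaving 11106. limma 3.58.1 in R 4.3.3 (lmFit, eBayes with a trend) was fitted to all 12 arrays with rat as a fixed block, because the labels give each rat's number. Deviations from the group means of the 2 arrays of a rat correlated at 0.156, 0.122 and 0.0401. The script was tested on simulated data. With 3 rats a group, their number limits the precision.

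The part, the gene lists and the tests were chosen with earlier results of these data known. For the lists, each gene was represented by its brightest probe set; lists overlap, and no set test was made. Named genes were the 10 largest called differences in each direction (no overlap, both groups above 56.3, no probe set called in the opposite direction), up to 5 called members of each list with the smallest p, the 4 smallest p of the age comparison, and 13 fixed genes of adipogenesis. Further list members and markers were named after their values were seen. Alternatives were no block, a random block, quantile normalization, other filters, offsets of 16 and 50, no trend, each rat left out, the actin ratio as a covariate, the 6 young arrays alone and, for lists, the mean over a gene's probe sets.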

Additional observations from a re-analysis of the deposited data

Results flagged for a closer look

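A pair of signals lay in control probe sets that the comparisons did not use. The 3′ probe set of the bacterial dap control had a mean of 573.8 ± 81.6 (SD, n = 3) on the young epididymal arrays, against 0.4 to 2.3 on the young perirenal arrays. The middle probe set of the hexokinase control had a mean of 727.5 ± 178 (SD, n = 3) on the young perirenal arrays, at 779, 874 and 530, against 16.1 to 17.4 on the young epididymal arrays. The annotated Hk1 probe set differed by 0.21 ± 0.15 (adjusted p = 0.296), and which hexokinase gene the control measures is not given in the sources used here. Groups of 3 arrays were too small to look for a single array far from the others.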

How the results depend on the processing

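The count of 3927 was 2528 to 2675 with 1 rat left out and 12 with the actin ratio as a covariate together with the replicate block; without the rat block it was 3880, of which 3616 were shared, with a random block 4209, and under the filters, offsets, quantile normalization, no trend and the 6 young arrays alone 2881 to 4257. The age comparison had no call under any alternative that could give it (612 to 965 with unadjusted p below 0.05). Of 168 named probe sets past the threshold, 10 lost their call without the rat block, 10 after quantile normalization, 13, 15 and 19 without rats 1, 2 and 3 and 163 with the covariate. Signs turned with the covariate for Twist1 (-0.12), Tnfrsf9 (0.26), Kcnk3 (-0.28), Cyp11b1 (-0.92), Rarres2 (0.18), Pparg (0.93), Pdgfra (0.33) and Il6 (0.64), after quantile normalization for Rarres2 (0.075) and, over the fits with 1 rat left out, for Pparg (-0.49 to 0.067), Il6 (-0.44 to 0.77) and Fabp4 (-0.064 to 1.59). List medians larger than the SD of the medians of the 3 rats turned sign as follows: with the dimmest 50% dropped, brown and beige -0.69, skeletal muscle -0.27, other mesodermal factors -0.043, retinoid -0.19, PDGF family -0.10 and interferon -0.056; after quantile normalization, proteoglycans 0.10, macrophage -0.14, Schwann cell 0.014 and PDGF family -0.047; without a filter, proteoglycans 0.16 and Schwann cell 0.26; with the mean of a gene's probe sets, proteoglycans 0.20 and Schwann cell 0.36; with the covariate, other mesodermal factors -0.17; with 1 rat left out, proteoglycans 0.012 to 0.17, Schwann cell -0.18 to 0.29, PDGF family -0.038 to 0.40 and cell cycle arrest -0.11 to 0.0064. Smaller medians also turned sign under some alternatives, to at most 0.17 for adipogenic factors, 0.098 for matricellular, 0.56 for endothelial, 1.19 for adrenal and renal, 0.0063 for IGF, 0.32 for Wnt and 0.070 for TGF-β genes, and to -0.11 for steroid genes. The causes were not tested. No fold or difference is printed where a group's geometric mean signal was below 56.3, except for the values with the covariate above.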
